A study of Mus musculus with 7 samples.

Results

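The counts described are those of 8 transcription factors that mark or pattern mesenchyme, the loose embryonic tissue from which bone, cartilage, fat and fibroblasts arise. The factors were chosen by name, as Meox1 and 9 others known from mesenchymal progenitors, after the fall of Meox1 with purmorphamine had been seen in the same libraries. Of the 10 names, 8 had a row among the 18468 genes counted (Meox1, Prrx1, Prrx2, Twist1, Twist2, Osr1, Osr2 and Tbx15). Meox2 and Tcf21 had no row under symbol or Ensembl identifier, so no counts of theirs were analysed here. The cells were C3H10T1/2, a mouse embryonic line used as a model of a mesenchymal progenitor that can form bone or fat. All libraries were from cells kept 12 h without serum and then 48 h, still without serum, in 2 μM purmorphamine (n = 4 libraries, numbered 5 to 8) or in 0.02% DMSO as vehicle (n = 3 libraries, numbered 2 to 4). Purmorphamine is a small-molecule agonist of Smo, the membrane protein that switches on Hedgehog signaling. In the study it acted on the Smo that the cells already have, for comparison with SmoA1, an active mutant of Smo introduced into the same line. The libraries held 14337225 to 14342154 reads after the authors had resampled them to equal numbers, and a gene without reads may have had up to 3, equal to 0.209 CPM (counts scaled to library size), a limit that covers counting error only. No source says whether the libraries of a group came from separate cultures, and the p-values then measure only the spread between these libraries.

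The factors belong to families of paired genes. Meox1 and Meox2 are homeobox factors of the somite, the segmented mesoderm of the embryo, and of its sclerotome, which forms the vertebrae under Hedgehog signals from the notochord. Prrx1 and Prrx2 are paired-related homeobox factors of limb and facial mesenchyme, and Twist1 and Twist2 are basic helix-loop-helix factors that bind DNA with E proteins and hold back osteoblast maturation. Osr1 and Osr2 are zinc finger factors, the former known from intermediate mesoderm and kidney and the latter from palate and joints. Tbx15 is a T-box factor of skeletal, dermal and fat precursors.

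Reads from one member of such a pair can be told from those of the other only where the transcripts differ, so the closest stretch is shown for the Twist pair, which holds the largest rise. The transcripts are those of GENCODE M21 (GRCm38), the stretches are 100 bases long, the length of a read, both lie within the coding sequence, and capitals mark bases at which the members differ. The stretch starts at base 347 of the coding sequence of Twist1 and at base 209 of that of Twist2.
Twist1: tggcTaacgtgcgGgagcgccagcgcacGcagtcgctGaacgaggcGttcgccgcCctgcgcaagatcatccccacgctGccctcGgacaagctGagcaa
Twist2: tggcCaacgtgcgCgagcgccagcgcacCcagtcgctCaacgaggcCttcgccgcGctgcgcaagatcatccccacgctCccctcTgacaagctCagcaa
The Twist stretches differed at 9 of 100 bases. The closest stretches of Prrx1 and Prrx2 differed at 17 bases and those of Osr1 and Osr2 at 12. The longest run of identical bases shared by a pair was 19 for Prrx, and 23 for both Twist and Osr. In the annotated protein-coding transcripts, therefore, no stretch of 100 bases was the same in both members of any of these 3 pairs. In the table's own coordinates none of the factors overlapped another row except Prrx1, whose 2 overlapping rows held at most 7 reads.

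Meox1 (ENSMUSG00000001493, chromosome 11 from 101877510 to 101894374 in GRCm38, minus strand, 3 exons) had 102, 136 and 112 reads with DMSO and 4, 5, 2 and 1 with purmorphamine. Every purmorphamine library lay far below every DMSO library, and the highest of the former was at 4.9% of the lowest of the latter. The means were 117 ± 17.5 (SD, n = 3) and 3.0 ± 1.83 (SD, n = 4). The log2 fold change (purmorphamine minus DMSO, from edgeR) was -5.27 (standard error 0.268). Because only 12 reads remained in the 4 purmorphamine libraries against 350 in the 3 DMSO libraries, the fold was also computed from these sums. It was 40.2-fold lower with purmorphamine, with an exact 95% interval from 22.7 to 78.5 that covers counting error only. These values are the ones for which the gene was picked, so they are given as a description. In bulk RNA, fewer cells with Meox1 transcripts and fewer transcripts per cell cannot be told apart.

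The Twist genes were higher in every purmorphamine library than in any DMSO library. Twist2 (ENSMUSG00000007805, chromosome 1 from 91801461 to 91848028, plus strand) had 37, 42 and 36 reads with DMSO and 189, 197, 148 and 153 with purmorphamine, 4.48 times as many on average. This gave a log2 fold change of 2.11 (standard error 0.151), the largest increase among the 8 factors. Twist1 (ENSMUSG00000035799, chromosome 12 from 33957671 to 33959829, plus strand, 2 exons) had 359, 337 and 371 reads with DMSO and 543, 563, 597 and 596 with purmorphamine, 1.62 times as many. The log2 fold change of Twist1 was 0.65 (standard error 0.0679). Twist2 was the minor member of the pair in both groups. Per length of exon it made up 5.02, 6.01 and 4.74% of the Twist transcripts with DMSO, and 15.1, 15.2, 11.3 and 11.6% with purmorphamine.

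Since both Twist genes changed in the same direction, the promoters of both are shown (RefSeq, GRCm38.p6), to compare what precedes their starts. Each is of 300 bases, 250 before the start of the transcript and 50 after it. Promoters were found for 6 of the 10 names (Twist1, Twist2, Prrx1, Prrx2, Meox2 and Tcf21). Those of Meox1, Osr1, Osr2 and Tbx15 were not available and were not searched. The sequences were searched on both strands for 4 motifs, a consensus of the GLI factors that carry the Hedgehog signal, the E-box that Twist factors bind, a homeodomain site and a TATA box. Capitals mark a match.
Twist1 (chr12:33957421-33957720, plus strand): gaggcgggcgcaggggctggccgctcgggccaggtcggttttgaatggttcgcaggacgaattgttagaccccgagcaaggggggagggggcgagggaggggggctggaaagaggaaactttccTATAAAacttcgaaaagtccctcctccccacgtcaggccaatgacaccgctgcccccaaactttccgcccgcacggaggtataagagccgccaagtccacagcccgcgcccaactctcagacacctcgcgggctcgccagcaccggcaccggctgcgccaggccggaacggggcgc
Twist2 (chr1:91801211-91801510, plus strand): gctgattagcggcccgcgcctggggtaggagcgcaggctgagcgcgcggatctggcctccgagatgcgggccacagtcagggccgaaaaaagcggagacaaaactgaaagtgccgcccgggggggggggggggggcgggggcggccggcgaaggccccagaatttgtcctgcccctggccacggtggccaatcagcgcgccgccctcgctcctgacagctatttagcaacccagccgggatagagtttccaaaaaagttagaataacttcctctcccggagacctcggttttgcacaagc
The Twist1 promoter held 1 match, to the TATA box, searched as TATAAA and found in 13.6% of the 32851 promoters of that length, and the Twist2 promoter held none. The Twist1 match started at base 125 of the 300. Of the 6 promoters, only that of Meox2 also held a match to TATAAA, on the opposite strand at base 222. The 2 matches thus lie at different distances from the start, and whether either acts as a TATA box was not tested. The GLI consensus, searched as GACCACCCA, was in none of the 6 promoters and in 0.253% of all. The E-box, CANNTG in letters, was in 1 of the 6, that of Meox2, and in 72.3% of all. The homeodomain site, which reads TAATTA, was in that of Prrx1 alone of the 6, and in 5.29% of all. The motifs do not overlap each other in any of the 6. The promoters of Twist1, Twist2 and Prrx2 had 27, 25 and 28 CpG dinucleotides, against a median of 7 over all promoters and 6 in that of Prrx1. A match or its absence describes these 300 bases only.

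Osr1 (ENSMUSG00000048387, chromosome 12 from 9570116 to 9581500, plus strand, 3 exons) had 863, 935 and 987 reads with DMSO and 1532, 1906, 1448 and 1465 with purmorphamine. The groups did not overlap, and library 6 stood above the other purmorphamine libraries. The log2 fold change was 0.73 (standard error 0.0819), and 0.64 without library 6. Osr2 (ENSMUSG00000022330, chromosome 15 from 35296098 to 35303305, plus strand, 3 exons) had 134, 141 and 178 reads with DMSO and 209, 206, 166 and 173 with purmorphamine. Its groups overlapped, since DMSO library 4 lay above purmorphamine libraries 7 and 8. The log2 fold change of Osr2 was 0.27 (standard error 0.12), and its call was lost without DMSO replicate 2 (0.20) and without DMSO replicate 3 (0.22). Without DMSO replicate 4, the highest of its group, it was 0.41. Per length of exon, Osr2 made up 8.13, 7.92 and 9.33% of the Osr transcripts with DMSO and 7.22, 5.81, 6.14 and 6.31% with purmorphamine. Its share was thus lower in every purmorphamine library, although its reads were not.

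The Prrx genes differed in opposite directions, and only the change of Prrx1 exceeded the range of the libraries. Prrx1 (ENSMUSG00000026586, chromosome 1 from 163245119 to 163313710, minus strand, 3 exons in its longest transcript) had 15942, 15309 and 14828 reads with DMSO and 17938, 17485, 19417 and 19138 with purmorphamine. All 4 purmorphamine libraries were above the 3 DMSO libraries, by a log2 fold change of 0.22 (standard error 0.0512). Prrx2 (ENSMUSG00000039476, chromosome 2 from 30834972 to 30881251, plus strand) had 290, 319 and 331 reads with DMSO and 291, 353, 221 and 248 with purmorphamine. Its purmorphamine libraries lay on both sides of the DMSO libraries. The log2 fold change of Prrx2 was -0.22 (standard error 0.12), and its call was lost with no scaling factor (-0.17), without DMSO replicate 3 (-0.21) or 4 (-0.17) and without purmorphamine replicate 7 (-0.12) or 8 (-0.16). Without purmorphamine replicate 6, the highest of its group, it was -0.34.

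Tbx15 (ENSMUSG00000027868, chromosome 3 from 99240381 to 99354259, plus strand, 8 exons) had 617, 605 and 621 reads with DMSO and 519, 464, 486 and 554 with purmorphamine. Every purmorphamine library was below every DMSO library, by a log2 fold change of -0.33 (standard error 0.0664).

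**Figure D1:**
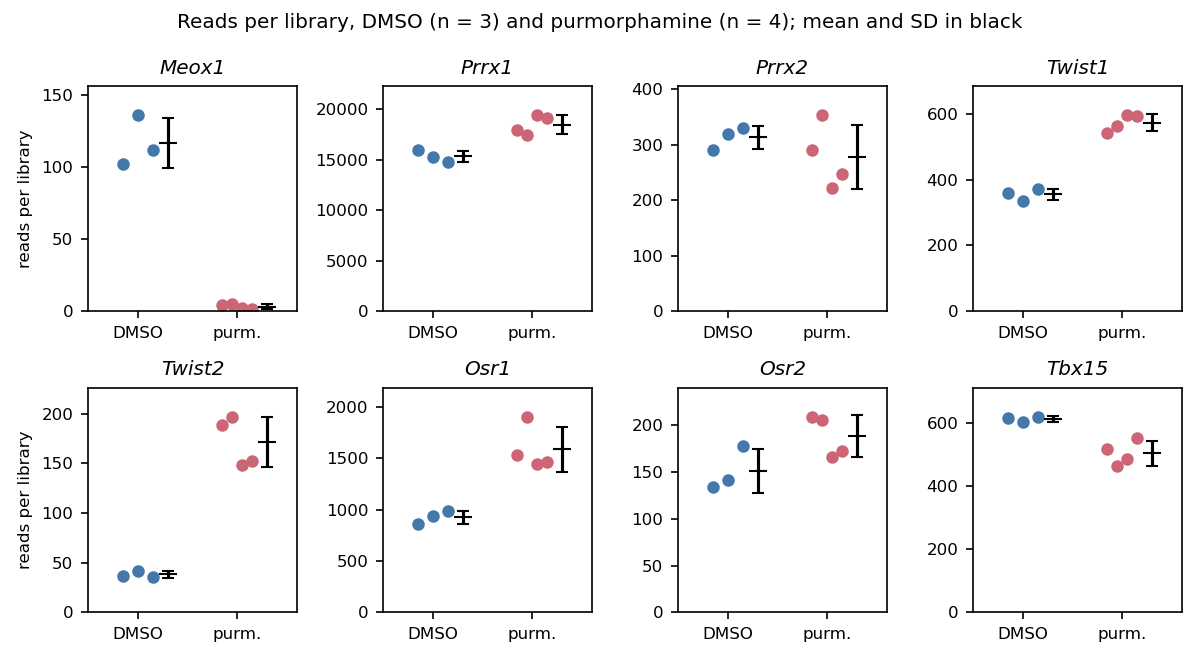
Reads per library (y axis, from 0, a scale for each gene) for the 8 factors, with 3 DMSO libraries in blue, 4 purmorphamine libraries in red, and mean and SD in black. Meox1 drops from 102 to 136 reads to between 1 and 5, Twist2 is above all DMSO libraries at 148 to 197, and the groups of Prrx2 and Osr2 overlap.

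Counted over the 8 factors, 4 had all purmorphamine libraries above all DMSO libraries (Prrx1, Twist1, Twist2 and Osr1), as had 29.1% of the 12388 genes tested. For 2 (Meox1 and Tbx15) they were all below, as for 20.4% of the genes tested. At an adjusted p under 0.2 from edgeR, 5 of the 8 were called higher and 3 lower, where 31.4% of the genes tested were higher and 31.1% lower. With a change of at least 1.5-fold also required, 3 were higher (Twist1, Twist2 and Osr1) and 1 lower (Meox1), where 7.89% and 7.56% of the genes tested were. The median log2 fold change was 0.25 over the 8 and 0.0038 over all genes tested. Nothing is read from these counts, since the contrast was in view when the names were chosen.

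**Figure D2:**
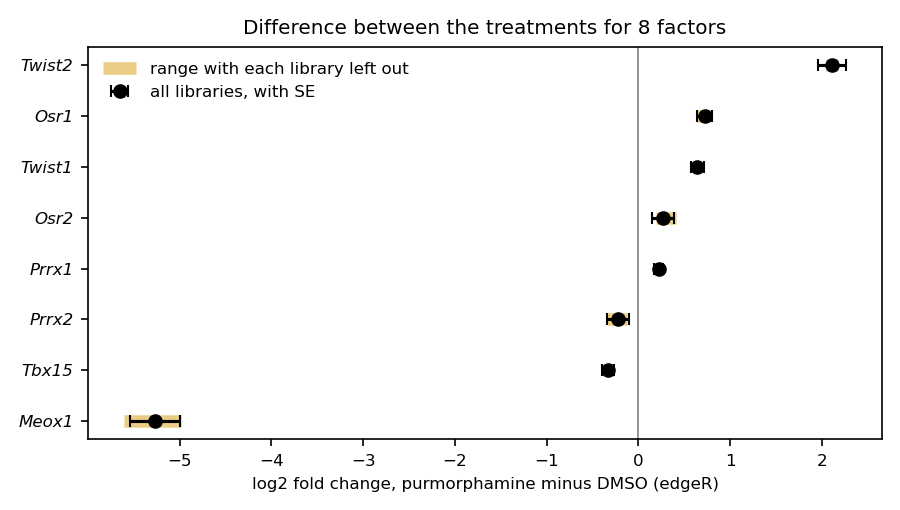
Log2 fold change (x axis, purmorphamine minus DMSO) of the 8 factors from edgeR, with its standard error, and in yellow the range when each library is left out in turn. Meox1 stands at -5.27 and Twist2 at 2.11, and the other six lie between -0.33 and 0.73.

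The levels of the factors per length of exon, which are the same counts rescaled and are given as a description, spanned a wide range with DMSO. In CPM per kilobase of exon, Prrx1 was highest at 98.6 ± 3.53 (SD, n = 3), followed by Osr1 at 31.9 ± 2.18, Twist1 at 15.5 ± 0.818, Tbx15 at 11.6 ± 0.207, Prrx2 at 11.4 ± 0.77, Meox1 at 3.72 ± 0.543, Osr2 at 2.96 ± 0.473 and Twist2 at 0.858 ± 0.0682. Neighbours in this order that overlapped between libraries were Tbx15 with Prrx2 and Meox1 with Osr2. With purmorphamine the first 3 places were the same, Prrx1 at 115 ± 6.22 (SD, n = 4), Osr1 at 52.8 ± 6.96 and Twist1 at 24.3 ± 1.18. Prrx2 (9.75 ± 1.98) and Tbx15 (9.28 ± 0.715) again overlapped, as did Twist2 (3.72 ± 0.526) and Osr2 (3.58 ± 0.41), and Meox1 was last at 0.0925 ± 0.056. That Meox1 level rests on 1 to 5 reads per library, around the 3 reads that a library without reads could have had. The lengths are those of GENCODE M21, and with the longest transcript in place of all exons Prrx1 was at 167 with DMSO. The order below the first 3 places depended on this choice. With the longest transcript and DMSO, Prrx2 (15.4) lay above Tbx15 (12.2) and close to Twist1 (15.5), and Osr2 (3.89) above Meox1 (3.72). With purmorphamine, Osr2 (4.69) then lay just above Twist2 (4.68).

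**Figure D3:**
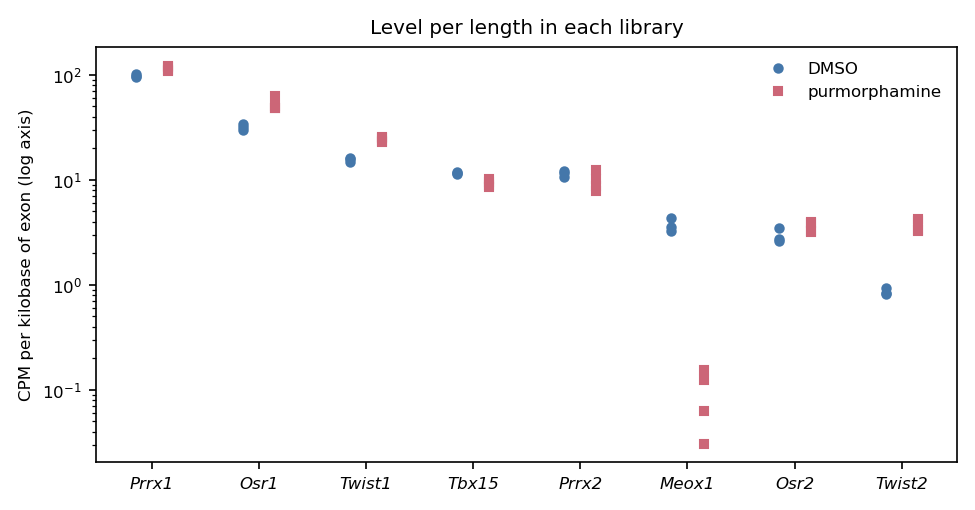
CPM per kilobase of exon (log y axis) in each DMSO library (blue circles) and each purmorphamine library (red squares), ordered by the DMSO mean. Prrx1 is highest in both groups, whereas Meox1 moves from 3.26 to 4.32 down to 0.0308 to 0.154 and Twist2 from 0.809 to 0.936 up to 3.23 to 4.25. The Meox1 levels with purmorphamine rest on 1 to 5 reads per library.

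The spread between libraries was set against counting noise, for which the variance of the reads equals their mean. The ratio of variance to mean was 0.836 with DMSO and 1.21 with purmorphamine for Twist1, and 2.62 and 1.11 for Meox1. It was largest for Prrx1 (20.3 and 46.8), whose reads were the most numerous, and for Osr1 with purmorphamine (29.2). Within the purmorphamine group, libraries 5 and 6 were both above libraries 7 and 8 for Meox1, Twist2, Osr1, Osr2 and Prrx2, and both below them for Prrx1 and Twist1. For Tbx15 they were mixed. Neither the labels nor the methods give a batch for these libraries, and what sets these 2 pairs of libraries apart was not tested.

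The genes whose profile over the 7 libraries was nearest to that of Meox1 were named by the root mean square difference of centred log2 CPM, among the 10602 genes that averaged 50 reads or more with DMSO. They were Cmtm5 (0.41 log2 units), Aif1l (0.54), Scube3 (0.57), Serpina3n (0.61) and Bmx (0.67). Scube3, a secreted protein with EGF-like repeats, had 335 to 344 reads with DMSO and 16 to 30 with purmorphamine. Serpina3n, a secreted serine protease inhibitor, had 307 to 379 and 18 to 24. Nearness here reflects the difference between the groups, which all 5 share.

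Hedgehog targets moved in these libraries. Gli1 had 7 to 12 reads with DMSO and 2522 to 3171 with purmorphamine, and Ptch1 504 to 532 and 10296 to 11451. Of 12 markers of mesenchymal cells, all had reads, and their sum was 380101 to 401716 reads with DMSO and 365506 to 394475 with purmorphamine. Of the 11 that passed the filter on low counts 5 rose, 2 fell and 4 were not called. These counts stand beside 31.4% of all genes tested that were higher and 31.1% that were lower at an adjusted p under 0.2. Pdgfra, Thy1 and Cd44 rose (log2 fold changes 0.76, 0.74 and 0.65, adjusted p = 3.92e-10, 1.61e-08 and 1.14e-08 from edgeR), as did Col3a1 (0.19) and Eng (0.28), while Vim, an intermediate filament gene, fell from 80155 to 42480 reads (-0.96, adjusted p = 1.73e-11) and Col1a2 fell as well (-0.23). Most markers of other cells had few reads, though Tek did not, and not all were constant. The 4 epithelial and blood-cell genes Krt8, Krt14, Ptprc and Cd68 held at most 18 reads in any library, while Cdh1 rose from 14 to 21 reads to between 110 and 135. Of the endothelial markers, Pecam1 and Kdr held at most 5 reads, Tek went from 770 to 816 reads to between 1870 and 2124, and Cdh5 from 0 to between 21 and 26. The summed epithelial markers (3 of 6 with a row) were at 14 to 23 and 111 to 136 reads, the endothelial markers (4 of 4) at 779 to 820 and 1898 to 2154, and the blood markers (2 of 4) at 13 to 16 and 10 to 19. Their part in the results for the 8 factors was not tested.

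Beyond the 8 factors, 74 genes from 5 lists of related transcription factors and their partners were examined, of which 49 had a row and 29 passed the filter on low counts. The lists were written with earlier results of these data known, so the p-values of their genes are given as a description. Of these 29 genes, 12 were higher and 10 lower with purmorphamine at an adjusted p under 0.2, beside 31.4% and 31.1% of all genes tested. With a change of at least 1.5-fold, 5 were higher and 6 lower, beside 7.89% and 7.56% of all genes tested. The counts in each list, given with its median, are of few genes and are to be read against the same shares and against the median of 0.0038 over all genes tested. In the list of somite and sclerotome factors, 7 of 20 passed the filter, 3 rose and 2 fell, with a median log2 fold change of 0.12. Tbx18, a relative of Tbx15 that keeps the front and back of each somite distinct, rose in every library, from 726, 642 and 668 reads to 1566, 1555, 1665 and 1594 (log2 fold change 1.19, standard error 0.056, adjusted p = 2.08e-11 from edgeR). Foxc1, a forkhead factor of paraxial mesoderm, rose from 1446 ± 37.8 to 2470 ± 65.6 reads (log2 fold change 0.73, adjusted p = 1.11e-09 from edgeR). Pax9, which patterns the sclerotome, rose from 168 ± 11.0 to 260.0 ± 29.7 (log2 fold change 0.58, adjusted p = 0.000184 from edgeR), and Six4 fell from 525 ± 17.0 to 388 ± 13.1 (log2 fold change -0.48, adjusted p = 8.69e-06 from edgeR). Nkx3-2, a Hedgehog-dependent sclerotome factor that Meox1 is known to activate, had 1 to 3 reads with DMSO and 0 to 2 with purmorphamine, too few for the filter. Cdkn1a and Cdkn2a are cell cycle inhibitors that Meox factors are known to induce. Cdkn1a fell from 1623 to 1533 reads (log2 fold change -0.13, adjusted p = 0.0335 from edgeR), and Cdkn2a had 38.0 ± 4.36 and 48.0 ± 10.4 reads (adjusted p = 0.242).

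Among the partners and inhibitors of Twist and the factors of epithelial-mesenchymal transition, 11 of 14 passed the filter, 3 rose and 6 fell, with a median log2 fold change of -0.46. Id proteins bind E proteins and keep them from partners such as Twist. Id1 fell from 490, 467 and 446 reads to 308, 262, 266 and 261 (log2 fold change -0.82, adjusted p = 1.41e-07 from edgeR), Id3 from 588, 562 and 575 to 363, 357, 326 and 348 (-0.77, adjusted p = 2.93e-08) and Id2 from 1262 to 946.0 (-0.46, adjusted p = 2.04e-06). Every purmorphamine library of these 3 genes was below every DMSO library. Of the E proteins, Tcf4 fell (log2 fold change -0.36, adjusted p = 1.01e-05 from edgeR), Tcf12 rose slightly (0.10, adjusted p = 0.0809) and Tcf3 had a log2 fold change of 0.04 (adjusted p = 0.698). Snai1 and Snai2, zinc finger repressors of Cdh1, fell from 633 ± 64.1 to 391 ± 56.2 and from 3961 ± 111 to 2491 ± 140 reads (log2 fold changes -0.74 and -0.72, adjusted p = 5.22e-06 and 3.43e-09 from edgeR). Zeb2, another repressor of Cdh1, rose from 1997, 2014 and 1984 reads to 2989, 3149, 3158 and 2923 (log2 fold change 0.57, adjusted p = 2.76e-08 from edgeR). Cdh1, which encodes E-cadherin, was 6.76-fold higher (log2 fold change 2.70, adjusted p = 1.14e-09 from edgeR). Dnm3os, the host transcript of a microRNA cluster that Twist1 is known to induce, rose from 3130, 3092 and 2006 reads to 3299, 3428, 4260 and 3490 (log2 fold change 0.35, adjusted p = 0.0204 from edgeR), with DMSO library 4 below the others. Zeb1 is entered in the table under 2 overlapping gene models with at most 2 reads in any library, so its counts carry no measure of its level.

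Of the homeobox factors of limb and facial mesenchyme, 8 of 20 passed the filter, 4 rose and 2 fell, with a median log2 fold change of 0.36. Msx1 rose from 122, 128 and 120 reads to 228, 268, 222 and 210 (log2 fold change 0.86, adjusted p = 3.05e-06 from edgeR) and Dlx5, a factor of osteoblast precursors, from 82, 97 and 99 to 146, 123, 149 and 194 (0.68, adjusted p = 0.00108). Dlx1 and Dlx2, neighbouring genes of facial mesenchyme, fell together, from 122 ± 13.2 to 75.0 ± 12.9 and from 73.0 ± 12.8 to 46.5 ± 6.61 reads (log2 fold changes -0.75 and -0.70, adjusted p = 0.000267 and 0.00219 from edgeR). Of the T-box and basic helix-loop-helix relatives, 3 of 15 passed the filter. Tbx18 and Tbx1 rose, the latter from 125 ± 11.2 to 190 ± 15.1 reads (log2 fold change 0.55, adjusted p = 0.000374 from edgeR), and Tbx3 had 199 ± 18.3 and 193 ± 14.1 reads (adjusted p = 0.445). The list of myogenic factors held 10 genes, of which 6 had a row. Pax3, Pax7, Myf5, Mymk and Des were at 6 reads or fewer in each library. Myod1, Myog, Myf6 and Actc1 had no row, so nothing is said of their levels. Of the 10 genes, 1 passed the filter, Tnnt3, with 7 to 9 reads with DMSO and 9 to 17 with purmorphamine (log2 fold change 0.62, adjusted p = 0.144 from edgeR).

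**Figure D4:**
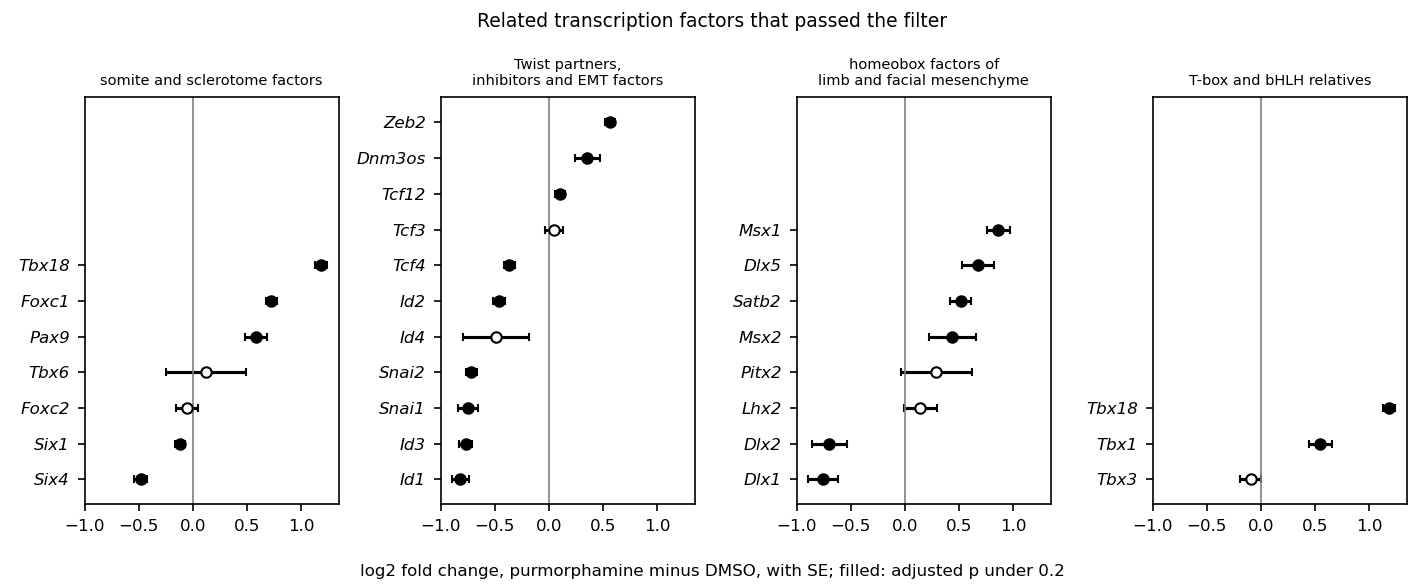
Log2 fold change (x axis, purmorphamine minus DMSO) with standard error for the related factors that passed the filter, by list, filled where the adjusted p from edgeR was under 0.2. Tbx18 is farthest to the right at 1.19, and Id1, Id3, Snai1, Snai2, Dlx1 and Dlx2 lie between -0.82 and -0.70.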

How the data were processed

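RNA from 7 libraries of C3H10T1/2 cells (3 DMSO, 4 purmorphamine) was sequenced by the authors from stranded, ribosomal RNA-depleted total RNA. The submitters' processing notes name STAR 2.5.3a and mm9, and the counter and gene annotation are not given in the sources used here. The authors resampled the reads to equal numbers per library and deposited whole-number counts per gene on the sense strand. The files hold no other per-sample column. Groups were taken from the labels.

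Counts were analysed with edgeR 4.0.16 (limma 3.58.1, R 4.3.3), with TMM factors and the default filter (at least 10 counts after scaling, and 15 in total). The quasi-likelihood test between purmorphamine and DMSO had no covariates. Its p-values were adjusted by the Benjamini-Hochberg method over the 12388 genes tested. A gene was called at an adjusted p under 0.2, the study's FDR. Standard errors were derived from the log2 fold change and the F statistic. No p is given for the 8 factors, since they were chosen with this comparison in view. The 8 names, the 5 lists of related genes and the rule for naming genes (called, a mean of at least 50 reads in a group and at least 1.5-fold, with others named for their role) were all written with earlier results of these data known. Levels are TMM-scaled CPM divided by kilobases of exon in GENCODE M21 (GRCm38), whose coordinates are given because the table's own are of another build. For the profile of Meox1, 0.1 was added to CPM before taking log2. The fit was tested on simulated counts. Alternatives were other scaling, other filters, DESeq2 1.42.0, limma-voom, stricter thresholds, another prior count and each library left out.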

Additional observations from a re-analysis of the deposited data

Results flagged for a closer look

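Among the 27 genes examined, 1 library stood apart from the other three purmorphamine libraries for Osr1 and for Id1. The gap from that library to its nearest neighbour made up 0.834 of the range of the group for Osr1 (library 6, the highest) and 0.838 of it for Id1 (library 5, the highest). Chance alone flags about 1 in 20 such groups.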

How the results depend on the processing

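No paired analysis was possible because no replicate number occurs in both groups. Requiring a change of at least 1.5-fold lowered every count by the construction of the threshold: to 977 higher and 936 lower over all genes tested (from 3887 and 3854), to 3 and 1 of the 8 factors, and to 5 and 6 of the related genes. At an adjusted p under 0.05 from edgeR, 2879 genes were called higher and 2926 lower. So were 4 and 2 of the 8 factors, without Osr2 and Prrx2, and 9 and 9 of the related genes. With each library left out in turn, 3500 to 3961 genes were called higher and 3374 to 3793 lower, 4 to 5 and 2 to 3 of the 8 factors, and 9 to 12 and 10 to 11 of the related genes. Without TMM factors, increases were 59.5% of the calls against 50.2%, and the median log2 fold change moved by 0.0475. Of the 111 alternative log2 fold changes of the 8 factors, 104 kept direction and call and 7, all of Prrx2 or Osr2, kept direction and lost the call, for which the cause was not tested. Meox1 ranged from -5.61 to -4.99 with each library left out and was -4.61 with a prior count of 2. It had fewer than 10 reads in every purmorphamine library, so it was not tested under the filter that asks for 10 in every library. Levels per kilobase moved by more than the spread between libraries in 9 of 16 cases when the longest transcript was used. At this depth, a library with no reads for a gene leaves room for an expected count of up to 3.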
